A study of Homo sapiens with 4 samples.

Results

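Genes of the G1 cell cycle machinery were examined in H3K27ac ChIP-seq peak lists of SK-N-BE(2)C cells, an established MYCN-amplified neuroblastoma cell line. They were the D-type cyclins CCND1, CCND2 and CCND3, the kinases CDK4 and CDK6, their substrate RB1, and the inhibitors CDKN1A, CDKN1B, CDKN2A and CDKN2B, that is 10 of 20033 protein-coding genes. Every peak that overlapped the GENCODE body of one of them plus 10 kb on either side was taken, and the same was done with 50 kb. The 10 kb windows held 35 of 63699 peaks of control cells and 33 of 50119 peaks of SNHG1-depletion cells. The control cells (sgCtrl, 2 samples) had received a non-targeting control gRNA and carry a wildtype genotype label, and the sgSNHG1 cells (2 samples) had received gRNA against the long non-coding RNA gene SNHG1 and carry a SNHG1 knockout label. Both kinds of cells were co-transfected with Cas9, dual sgRNAs and a pSurrogate reporter, selected with puromycin and grown from sorted single-cell clones, and which clone each sample came from is not given in the sources used here, so a difference between clones and an effect of SNHG1 cannot be told apart.

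D-type cyclins bind CDK4 and CDK6 in G1, and the complexes phosphorylate the retinoblastoma protein RB1, which then releases E2F transcription factors and lets the cell enter S phase. INK4 inhibitors, the products of CDKN2A and CDKN2B, bind CDK4 and CDK6, and the CIP/KIP inhibitors CDKN1A and CDKN1B bind cyclin-CDK complexes, mainly those with CDK2. CCND1 and CDK4 are genes with recurrent gains in neuroblastoma, a tumour of the sympathetic nervous system. Acetylation of lysine 27 of histone H3 marks active promoters and enhancers, so a peak describes chromatin at a gene and not its transcript level.

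Each list was called once on the pooled samples of a group, so no spread between replicates is known, no test was made, and every comparison is a description of 2 lists. A peak's fold enrichment is the ratio of its summit to the local background. Its pileup is the number of fragments over the summit, recovered from the fold enrichment and the −log10 p, and the local background is the number of fragments that the peak caller expected there. The genome-wide background was 4.89 fragments in sgCtrl and 4.66 in sgSNHG1. Intervals are 95% counting intervals that take fragments as independent and ignore the spread between cultures. The authors kept duplicate reads in peak calling, so the intervals can be too narrow even for counting error. The sgCtrl list held a peak over SNHG1 itself (chr11:62851978-62855953) and the sgSNHG1 list held none. Of all sgCtrl peaks, 38.5% had no sgSNHG1 partner. The pileup of the SNHG1 peak is not given here, so its absence cannot be set apart from this share. Start-site peaks were present at 6 (sgCtrl) and 7 (sgSNHG1) of 7 adrenergic neuroblastoma markers, DBH being the one in sgSNHG1 alone. They were present at 4 and 3 of 9 markers of other cell types (EPCAM, CDH1 and PDGFRB in both, COL1A1 in sgCtrl alone). The blood markers PTPRC and CD3E had none in either list. Of all protein-coding genes, 64.2% had a start-site peak in sgCtrl and 63.3% in sgSNHG1.

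The genes differed from one another far more than the lists did. In the 10 kb windows the number of peaks was 35 in sgCtrl and 33 in sgSNHG1, a ratio of 0.943, where the whole lists had a ratio of 0.787. The direction turned with the threshold, to 28 and 29 (1.036) when −log10 p had to reach 10 and to 28 and 33 (1.179) with lists of equal size. The peaks covered 22016 bp and 19584 bp. Of the 35 sgCtrl peaks, 24 overlapped a sgSNHG1 peak (68.6%, Wilson interval 52.0 to 81.4), and of the 33 sgSNHG1 peaks, 25 overlapped a sgCtrl peak (75.8%, 59.0 to 87.2). Over the whole lists, 38.5% of sgCtrl peaks and 20.8% of sgSNHG1 peaks had no partner, so the shares near these genes were close to the background. All 8 sgCtrl peaks whose −log10 p reached 30 had a partner, as did 11 of 12 between 15 and 30, 4 of 8 between 10 and 15 and 1 of 7 below 10. Peaks without a partner were thus mostly weak, as in the whole sgCtrl list, where 0.975%, 20.4%, 56.4% and 75.5% of these classes lacked one.

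**Figure D1:**
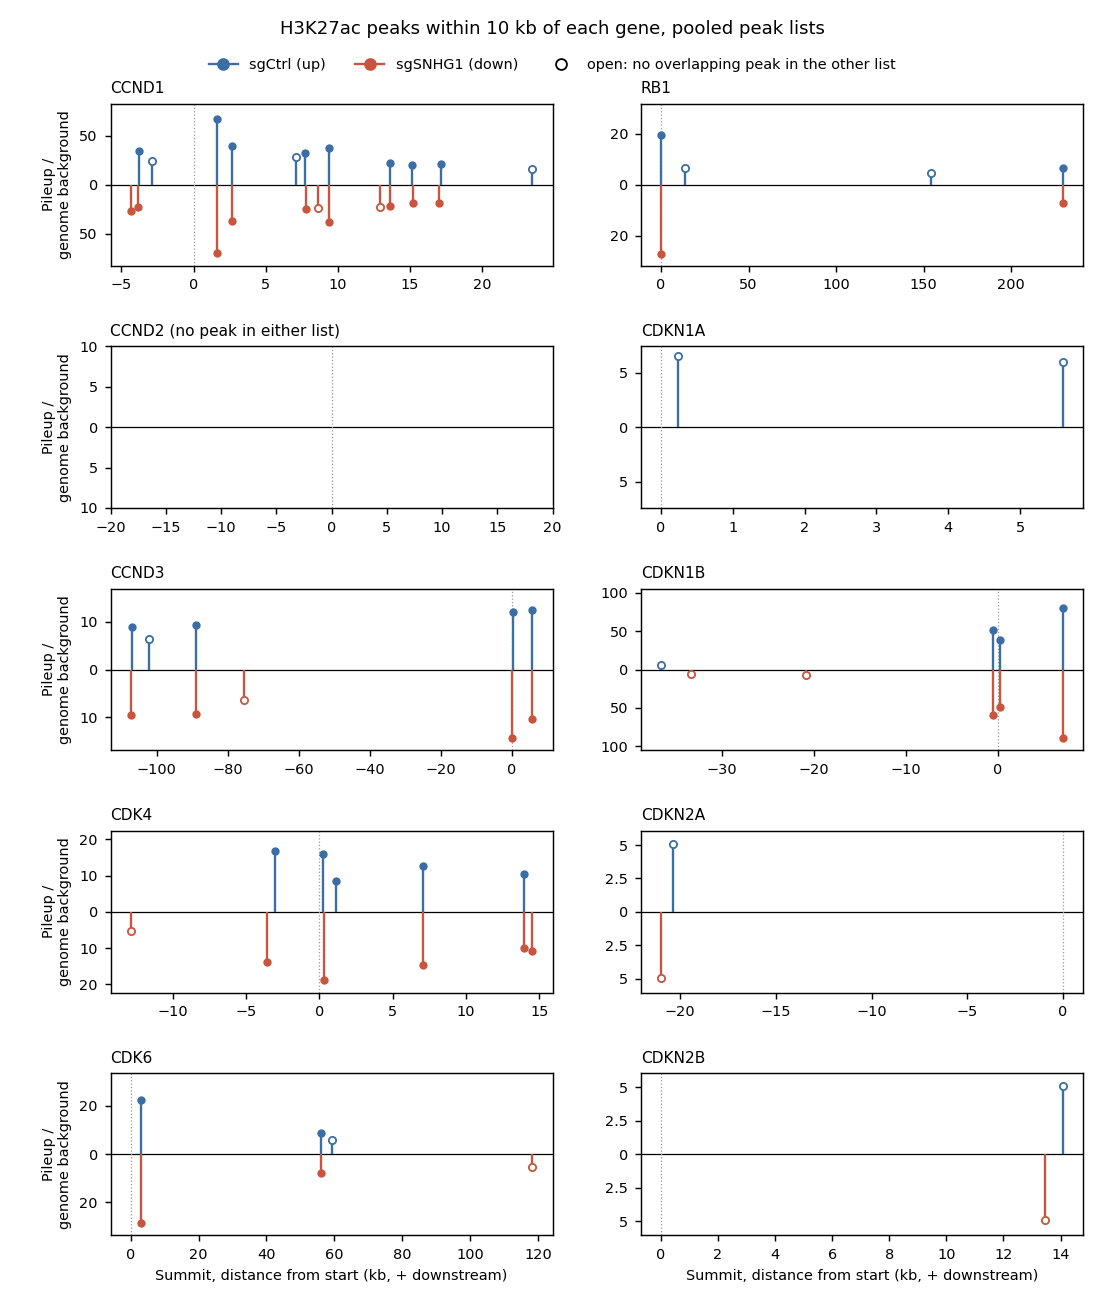
H3K27ac peaks within 10 kb of each gene, with the distance of the summit from the canonical start in kb on the x axis and the pileup divided by the genome-wide background of the list on the y axis, sgCtrl upwards and sgSNHG1 downwards. Filled points overlap a peak of the other list; CCND1 has 11 peaks in each list, CCND2 none, and both CDKN1A peaks are in sgCtrl alone.

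A peak can be missing from a list because it fell just under the p-value threshold. For each peak present in 1 list, the highest pileup that the other list could hold without a call was computed, taking the same local background scaled to the other list's genome-wide background. For all 11 sgCtrl peaks without a partner in the 10 kb windows, the ratio of that pileup to the observed one had an interval that included 1. The same held for 7 of the 8 sgSNHG1 peaks without a partner. The exception was a peak of 36 fragments at chr12:12696422-12696620, within the CDKN1B gene and 325 bp from a start of GPR19. The sgCtrl list could hold at most 21 fragments there, 0.555 of the sgSNHG1 value after scaling (0.308 to 0.977). The same share over all peaks without a partner is not given here, so such exceptions cannot be set apart from what is usual in the lists.

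The cyclin D1 gene CCND1 (chr11:69641156-69654474, plus strand) had the most peaks of the 10 genes, 11 in each list, of which 8 (sgCtrl) and 9 (sgSNHG1) had a partner. The covered length was 7141 bp in sgCtrl and 6227 bp in sgSNHG1. The strongest was a peak of 2173 bp in sgCtrl and 2167 bp in sgSNHG1 that ran from the start into intron 1. Its pileup was 329 fragments in sgCtrl and 326 in sgSNHG1, at the 99.2 and 98.8 percentile of all peaks. Its fold enrichment was only 3.71 and 3.98, at the 48.5 and 52.9 percentile. The difference between these places lay in the local background, which was 87.9 and 81.1 fragments, 17.96 and 17.40 times the genome-wide value. Every CCND1 peak within 10 kb stood on a raised background, from 6.61 to 18.6 times the genome-wide value in sgCtrl and from 7.85 to 17.98 times in sgSNHG1. No peak in another member's 10 kb window had a background above 8.59 times. The fold enrichment of the highest peak was 1.07 times as high in sgSNHG1 as in sgCtrl (0.918 to 1.255). The 151 bases around the sgCtrl summit are shown because this peak has the most fragments of any D-type cyclin. They were 76.2% G and C and held 3 copies of the GC box GGGCGG, in capitals (GRCh38, chr11:69642693-69642843, plus strand, intron 1). Of such windows around all sgCtrl summits, 24.6% held a GC box, and their median was 64.9% G and C.
CCND1 intron 1 summit: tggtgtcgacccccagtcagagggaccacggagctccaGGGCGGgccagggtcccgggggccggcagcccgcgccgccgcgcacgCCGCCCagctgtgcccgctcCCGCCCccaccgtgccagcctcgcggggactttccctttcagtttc

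Upstream of CCND1, a sgCtrl peak of 992 bp with its summit 3797 bp before the start had a pileup of 171 fragments and a fold enrichment of 3.39. In sgSNHG1 the same stretch held 2 peaks of 376 and 305 bp, with 125 and 108 fragments. The sgCtrl peak and the higher of these had a ratio of 0.990 in fold enrichment (0.778 to 1.251) and 0.835 in pileup scaled by the median of shared peaks (0.658 to 1.06). Intron 4 held a further peak of 186 and 179 fragments, 9390 bp after the start, with a fold enrichment of 2.98 and 3.33. The peaks beyond the 3′ end lay in the body of the neighbouring gene LTO1. With 50 kb flanks the number of CCND1 peaks was 20 in sgCtrl and 14 in sgSNHG1. The strongest by enrichment lay 33959 bp after the CCND1 start, with LTO1 as the nearest coding start, at 234 fragments in both lists and a fold enrichment of 10.1 and 10.2. Of the 22 sgCtrl peaks without a partner in the 50 kb windows of all members, 20 had an interval that included 1 when the highest uncalled pileup was set against the observed one. An exception lay here, at chr11:69627586-69627934 (51 fragments, fold enrichment 4.07), and could have at most 29 fragments in sgSNHG1, 0.597 of the sgCtrl value (0.365 to 0.960).

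**Figure D2:**
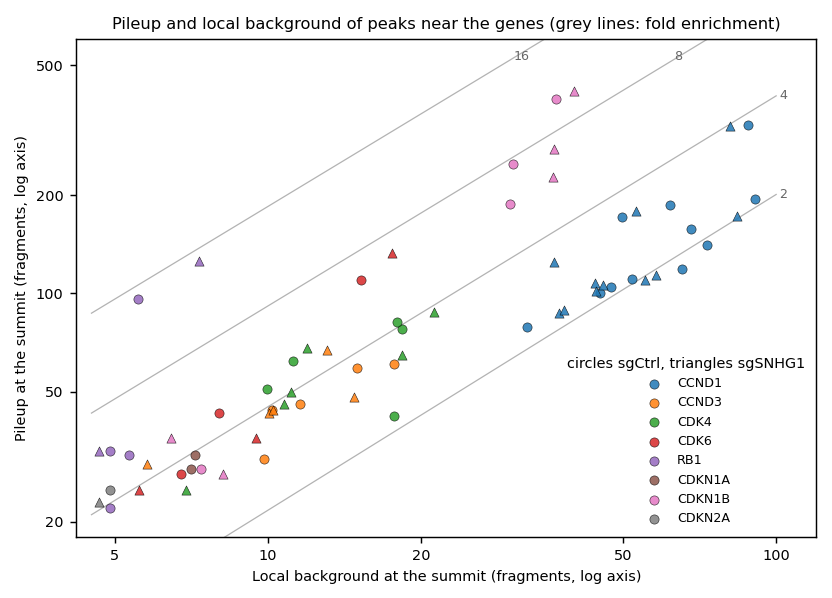
Pileup at the summit against the local background, both in fragments on log axes, for the peaks within 10 kb of the genes, with circles for sgCtrl and triangles for sgSNHG1. Grey lines mark a fold enrichment of 2, 4, 8 and 16; the CCND1 peaks lie at the right, with backgrounds of 32.3 fragments or more, and the RB1 start-site peaks near 16 on a background of 5.56 and 7.32 fragments.

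CCND2 (chr12:4269771-4305353, plus strand), which encodes cyclin D2, had no peak within 10 kb in either list. It shared this with 18.4% of all protein-coding genes. Its 50 kb window held a single peak, at the start of TIGAR, which encodes a fructose bisphosphatase. That peak had 59 fragments in sgCtrl and 109 in sgSNHG1, with a fold enrichment of 10.2 and 13.7. The ratio was 1.35 by fold enrichment (0.979 to 1.89) and 2.11 by scaled pileup (1.52 to 2.95). Over protein-coding genes, the scaled pileup of the start-site peak had a median ratio of 1.21, and 18.2% were at least 1.5 times higher.

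CCND3 (chr6:41934934-42050357, minus strand), the gene of cyclin D3, has 11 annotated coding start positions, and 5 peaks lay in its window in each list, 4 of them with a partner. The peak just after the canonical start, with its summit in exon 1, had 59 fragments in sgCtrl and 67 in sgSNHG1. Its fold enrichment was 3.75 and 4.83. The ratio was 1.29 (0.896 to 1.86). The peak over a distal start, 107113 bp upstream of the canonical one, had 44 fragments in both lists and a fold enrichment of 4.02 and 4.00. This distal peak was the highest by enrichment in sgCtrl, and the peak by the canonical start in sgSNHG1. The ratio of the highest values, 1.201 (0.816 to 1.81), thus compared different positions. In sgSNHG1 87 of the 120 words of 32 bases around the distal summit occurred more than once in GRCh38. A peak over exon 5 had 61 and 48 fragments, and an intragenic peak 88881 bp upstream of the canonical start had 46 and 43. Each list had 1 intragenic peak of its own, of 31 fragments in sgCtrl and 30 in sgSNHG1.

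CDK4 (chr12:57747727-57756013, minus strand) lies in a dense stretch of genes, and several peaks of its window lay at the starts of neighbours. The window held 5 peaks in sgCtrl, all with a partner, and 6 in sgSNHG1, 5 of them with a partner. The peak at the canonical CDK4 start had 78 fragments in sgCtrl and 88 in sgSNHG1, with a fold enrichment of 4.08 and 4.00. Its ratio was 0.981 (0.716 to 1.35). In sgCtrl a second peak of 42 fragments over exon 3 was called separately, whereas a single sgSNHG1 peak of 1115 bp spanned both. That second pair had a ratio of 1.74, the largest of the members' shared peaks, because the merged peak carries the summit of the start. The peak 3042 bp upstream, between distal CDK4 starts and MARCHF9, had 82 fragments in sgCtrl and 65 in sgSNHG1 and a ratio of 0.778 (0.552 to 1.09). The highest enrichment in the window, 5.16 and 5.32, belonged to TSPAN31, 7055 bp downstream of the CDK4 start, and had a ratio of 1.03 (0.722 to 1.48). A peak of 25 fragments by CYP27B1 was in sgSNHG1 alone.

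The CDK4 promoter is shown because it holds CACGTG, the E-box bound by MYC family proteins, 3 times in the 250 bases before the RefSeq start (GRCh38.p14). CACGTG reads the same on both strands. It was found in 6.34% of 35097 RefSeq promoters, and 3 or more times in 0.0769%. The window was searched for letters only, and binding was not measured. No peak of either list covered these sites. The peaks at the CDK4 start ended short of them, at chr12:57752278 in sgCtrl and chr12:57752280 in sgSNHG1. The part beyond annotated untranslated regions (chr12:57752448-57752560, minus strand, 5′ to 3′) holds 2 of the sites and a GC box in capitals, and the site 101 bases before the start is given with its flanks (chr12:57752401-57752416).
CDK4 promoter: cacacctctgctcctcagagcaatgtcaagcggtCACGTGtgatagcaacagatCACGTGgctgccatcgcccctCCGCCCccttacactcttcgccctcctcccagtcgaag
CDK4 CACGTG site 3: gcggtCACGTGcccag

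CDK6 (chr7:92604921-92836573, minus strand) had 3 peaks in each list, 2 of them shared. The strongest was 1211 bp long in sgCtrl and 1183 bp long in sgSNHG1, with its summit over exon 2, 3120 bp after the canonical start and close to a second coding start. Its pileup was 110 fragments in sgCtrl and 133 in sgSNHG1, with a fold enrichment of 6.84 and 7.21, a ratio of 1.055 (0.814 to 1.37). An intron 2 peak 55950 bp after the start had 43 and 36 fragments and a fold enrichment of 4.88 and 3.52, a ratio of 0.722 (0.448 to 1.15). Each list had 1 further intronic peak, of 28 fragments in sgCtrl and 25 in sgSNHG1. Of the 120 words of 32 bases around the intron 2 summit of sgCtrl, 119 occurred more than once in GRCh38. In sgSNHG1, where the summit lay close by, 85 of 120 words did, and for the sgCtrl peak of 28 fragments 64 did. How the authors' alignment treated reads with several matches in the ChIP-seq data is not given in the sources used here.

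Most member summits were not of this kind. Within 10 kb, 32 of 35 sgCtrl summits and 31 of 33 sgSNHG1 summits held no repeated word at all. The others were the 3 CDK6 summits named, a sgCtrl peak by GPR19 in the CDKN1B window (78 of 120 words) and the distal CCND3 summit of sgSNHG1.

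RB1 (chr13:48303744-48599436, plus strand) had the highest enrichment of the 10 genes. Its start-site peak of 1004 bp in sgCtrl and 1098 bp in sgSNHG1 had a fold enrichment of 14.8 and 15.3, at the 99.1 and 99.2 percentile of all peaks. The pileup was 96 fragments in sgCtrl and 126 in sgSNHG1, on a background of 5.56 and 7.32 fragments, 1.14 and 1.57 times the genome-wide value. The ratio by fold enrichment was 1.03 (0.788 to 1.37). By pileup scaled with the median of shared peaks it was 1.5 (1.14 to 1.98), where the median over protein-coding genes was 1.16 and the pileup of 14.1% of them was at least 1.5 times as high in sgSNHG1 and that of 3.45% at least 1.5 times lower. Both intronic peaks of RB1 were in sgCtrl alone. One, of 32 fragments and 800 bp, lay in intron 2, 13512 bp after the start, over the pseudogene PPP1R26P1, and could have up to 18 fragments in sgSNHG1, 0.591 of the sgCtrl value (0.312 to 1.08). The other, of 22 fragments, lay in intron 19, 154044 bp after the start. A peak at the start of RCBTB2, inside the annotated RB1 body, had 33 fragments in both lists. The 200 bases before the first RB1 start (chr13:48303544-48303743, plus strand) lie inside the start-site peak of both lists. They are shown because they hold a TTTNNCGC word, the E2F-type site, and a GC box GGGCGG, in capitals. Over RefSeq promoters, 5.92% hold the first and 42.6% the second in the 250 bases before the start.
RB1 upstream of the start: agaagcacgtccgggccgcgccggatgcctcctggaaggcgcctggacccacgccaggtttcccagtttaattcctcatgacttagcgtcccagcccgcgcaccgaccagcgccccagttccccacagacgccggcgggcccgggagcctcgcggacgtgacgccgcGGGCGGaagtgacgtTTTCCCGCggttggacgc

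CDKN1A (chr6:36676460-36687337, plus strand), the gene that encodes p21, was the only member with a start-site peak in 1 list. In sgCtrl a peak of 341 bp in intron 1 had its summit 239 bp after the canonical start, with 32 fragments and a fold enrichment of 4.02. A second peak over exon 2 had 29 fragments and a fold enrichment of 3.73. The sgSNHG1 list had no peak within 10 kb. The start-site peak was at the 18.2 percentile of pileup in sgCtrl. In sgSNHG1 it could have had up to 21 fragments without a call, 0.689 of the sgCtrl value (0.378 to 1.23), so a difference in acetylation was not detectable at this depth. With 50 kb flanks the number was 8 in sgCtrl and 2 in sgSNHG1. The shared pair 17778 bp upstream had 35 fragments in both lists and a fold enrichment of 4.37 and 4.51, and the pair by CPNE5 had 53 and 40 fragments. The remaining sgCtrl peak without a partner whose interval lay below 1, at chr6:36721564-36722068, had 63 fragments and a fold enrichment of 3.67, and could have at most 37 fragments in sgSNHG1 (0.617 of the sgCtrl value, 0.3996 to 0.940). The part of the intron 1 peak from just before its summit to its end (chr6:36678940-36679155, plus strand) is shown because CDKN1A was the only member with a start-site peak in a single list. It held 2 GC boxes, in capitals, and was 68.1% G and C. Of shorter windows of 151 bases around all sgCtrl summits, 24.6% held a GC box, with a median of 64.9% G and C.
CDKN1A intron 1 peak: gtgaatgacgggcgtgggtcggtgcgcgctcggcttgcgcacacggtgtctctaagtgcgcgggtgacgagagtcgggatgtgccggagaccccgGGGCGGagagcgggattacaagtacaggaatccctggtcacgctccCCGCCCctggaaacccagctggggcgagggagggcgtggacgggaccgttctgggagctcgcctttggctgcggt

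Of the 10 members, 8 had a start-site peak (within 1 kb of a coding start) in sgCtrl and 7 in sgSNHG1. These were 80% and 70% of the members, beside 64.2% in sgCtrl and 63.3% in sgSNHG1 over all protein-coding genes. With 10 members the shares cannot be set apart. Among all protein-coding genes with such a peak in sgCtrl, 6.99% had none in sgSNHG1, and 5.7% of those with one in sgSNHG1 had none in sgCtrl. For any peak in the 10 kb window, 5.24% of genes with one in sgCtrl had none in sgSNHG1. A single gene of 8 is too few to set apart from these shares.

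CDKN1B (chr12:12685498-12722369, plus strand), which encodes p27, had the peaks with the most fragments. The window held 4 peaks in sgCtrl and 5 in sgSNHG1, 3 of them shared, and covered 3141 and 3370 bp. Just before the canonical start, 472 bp upstream, a peak had 250 fragments in sgCtrl and 277 in sgSNHG1, with a fold enrichment of 7.999 and 7.41 and a ratio of 0.927 (0.778 to 1.10). A second peak over exon 1 had 188 and 227 fragments and a fold enrichment of 6.09 and 6.10, a ratio of 1.00 (0.823 to 1.22). The strongest lay 7083 bp after the start, beyond the 3′ end, and 1480 bp from a start of APOLD1. Its pileup was 394 fragments in sgCtrl and 416 in sgSNHG1, at the 99.4 and 99.3 percentile, and its fold enrichment was 10.4 and 10.2. The ratio was 0.976 (0.849 to 1.12). None of the 3 shared pairs differed beyond counting error in fold enrichment. By scaled pileup all 3 were higher in sgSNHG1, from 1.21 (1.049 to 1.39) to 1.38 (1.13 to 1.68). The ratio of 1.21, that of the highest peak, was at the 55.8 percentile of protein-coding genes, whose median on this scale was 1.16. The weak peaks far upstream, of 29 fragments in sgCtrl and 28 and 36 in sgSNHG1, were each in 1 list and nearest to GPR19. The downstream summit is shown because it had the most fragments of any member in both lists (chr12:12724376-12724526, plus strand). It held 2 words of the letters CCGCCC, the GC box on the other strand, in capitals. A GC box on either strand was in 24.6% of such windows around all sgCtrl summits.
CDKN1B downstream summit: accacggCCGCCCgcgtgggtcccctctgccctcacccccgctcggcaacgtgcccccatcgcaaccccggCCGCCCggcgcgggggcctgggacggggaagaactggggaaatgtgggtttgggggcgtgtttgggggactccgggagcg

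CDKN2A (chr9:21967752-21995301, minus strand) encodes the INK4 inhibitor p16 from one start and the unrelated ARF protein from another, and CDKN2B (chr9:22002903-22009305, minus strand) encodes p15. Their windows overlap and shared a single peak in each list. In sgCtrl it lay over the distal start, that of ARF (chr9:21995094-21995331), with 25 fragments and a fold enrichment of 4.41. In sgSNHG1 it lay at chr9:21995677-21995888, upstream of the gene, with 23 fragments and a fold enrichment of 4.24. The 2 peaks did not overlap and were 346 bp apart. They were among the weakest of the members, at the 5.73 and 4.63 percentile of pileup, on a background equal to the genome-wide one. The ratio of the 2 was 0.961 (0.520 to 1.76), between different positions. Neither list held a peak at the canonical CDKN2A start or at the CDKN2B start, and the 50 kb windows added none. The RefSeq promoter of the ARF start, without the 50 bases after it (chr9:21995325-21995574, minus strand), is shown because it fills most of the gap between the 2 peaks. It was 66.8% G and C and held no CACGTG, no TTTNNCGC, no GGGCGG, no TGACTCA and no AGATAA on either strand.
CDKN2A p14ARF promoter: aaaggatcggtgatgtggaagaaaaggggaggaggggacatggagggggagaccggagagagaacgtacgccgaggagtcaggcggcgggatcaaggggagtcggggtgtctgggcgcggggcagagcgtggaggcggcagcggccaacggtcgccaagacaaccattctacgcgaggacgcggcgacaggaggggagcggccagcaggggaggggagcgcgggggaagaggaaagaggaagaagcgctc

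**Figure D3:**
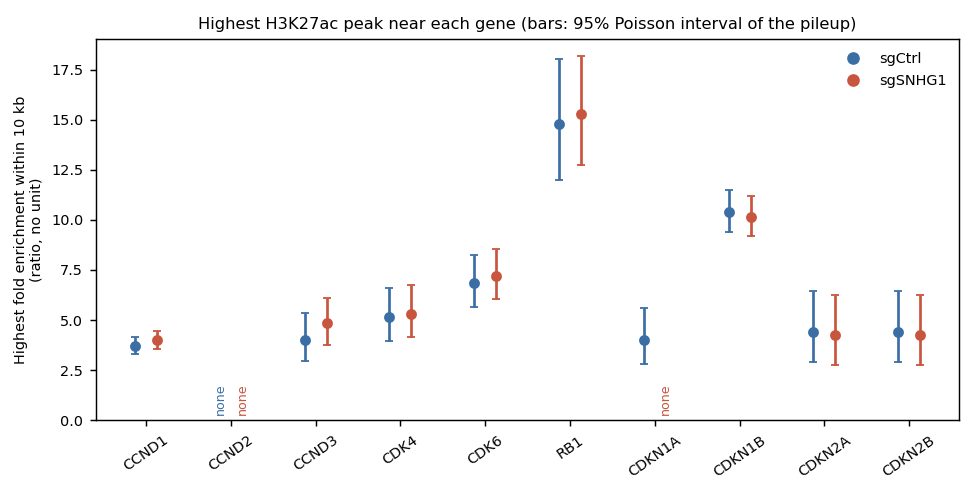
Highest fold enrichment (a ratio, without unit) of a peak within 10 kb of each gene in sgCtrl and sgSNHG1, with 95% Poisson intervals of the pileup as bars. The intervals of the lists overlap at every gene with a peak in both; RB1 is highest at 14.8 and 15.3, CDKN1B follows at 10.4 and 10.2, and CCND1 is lowest at 3.71 in sgCtrl.

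The order of the genes by their highest enrichment was nearly the same in the lists. RB1 came first and CDKN1B next, followed by CDK6 (6.84 and 7.21) and CDK4 (5.16 and 5.32). The intervals of RB1 (12.0 to 18.01 in sgCtrl), CDKN1B (9.41 to 11.5) and CDK6 (5.63 to 8.23) did not overlap one another. Those of CDK6 and CDK4 (3.975 to 6.59) did, as did those of CDK4, CDKN2A, CDKN1A and CCND3. By pileup the order was another one, with CDKN1B and CCND1 first.

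For the 8 members with a peak in both lists, the ratio of the highest fold enrichment ran from 0.961 (CDKN2A and CDKN2B, the same peak) to 1.201 (CCND3), with a median of 1.03, beside a median of 1.02 over 15058 protein-coding genes. No member passed 1.5-fold in either direction, a difference that 1.97% of genes showed as higher in sgSNHG1 and 1.6% as lower. Within 10 kb, no member passed a ratio of 5 to 4 in either direction, which 11.4% did as higher and 8.55% as lower. With 50 kb flanks CCND2 passed it, by the peak at the TIGAR start (1.35, 0.979 to 1.89). Among the 24 shared sgCtrl peaks of the windows, the median scaled pileup was 1.13 times as high in sgSNHG1 and the range was 0.830 to 2.39. Of these 24, 2 were at least 1.5 times higher (the merged CDK4 pair and RB1) and 0 at least 1.5 times lower, beside 9.21% and 5.69% of all shared peaks.

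**Figure D4:**
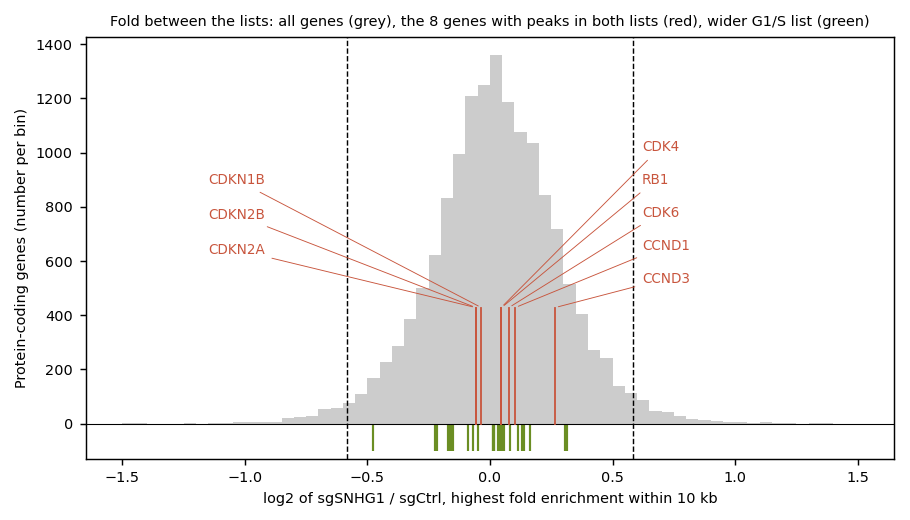
Number of protein-coding genes per bin of the log2 ratio, sgSNHG1 over sgCtrl, of the highest fold enrichment within 10 kb, with red lines for the 8 genes with a peak in both lists, green marks for the wider G1/S list and dashed lines at 1.5-fold. The red lines lie near the centre, from 0.961 for CDKN2A to 1.201 for CCND3 as ratios.

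A wider list of 28 genes of the G1/S transition was examined beside the members. It held the E-type and A-type cyclins with CDK2, the CDK-activating kinase, CDC25A, the remaining inhibitors, the RB1 relatives, the E2F and DP factors, and regulators of protein turnover such as SKP2, CKS1B, FBXW7 and MDM2. Start-site peaks were present at 25 of the 28 genes in sgCtrl and 28 in sgSNHG1, against 64.2% and 63.3% of all protein-coding genes. The 3 genes with a start-site peak in sgSNHG1 alone were CKS1B, CDKN1C and CDKN2D, where 5.7% of all genes with a start-site peak in sgSNHG1 had none in sgCtrl. CKS1B, a cofactor of the ligase that degrades p27, had a start-site peak of 126 fragments and a fold enrichment of 3.25 in sgSNHG1, while the nearest sgCtrl peak was 3957 bp from a start. CDKN1C, the gene of the CIP/KIP inhibitor p57, had 51 fragments in a peak that overlapped a sgCtrl peak 1189 bp from the start, so the stretch was marked in both lists and the sgCtrl peak ended outside the 1 kb limit. CDKN2D, which encodes an INK4 inhibitor, had 53 fragments in sgSNHG1, and the nearest sgCtrl peak was 2364 bp away. All 28 had a peak within 10 kb in both lists. The ratio of the highest enrichment ran from 0.718 to 1.24 with a median of 1.01, and none passed 1.5-fold. By the scaled pileup of the start-site peak the median was 1.24 over the 25 genes with one in both lists, beside 1.21 over 11964 protein-coding genes, of which 18.2% were at least 1.5 times higher in sgSNHG1 and 2.86% at least 1.5 times lower.

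The pileup at a gene was also set beside that of other shared peaks within 5 Mb, outside the 50 kb windows, on the same scale, where the median over all shared peaks is 1. Around CDKN2A this median was 0.671 over 19 shared peaks, and the number of peaks was 52 in sgCtrl and 23 in sgSNHG1. It was the lowest of the 10 regions. It was highest around CDK6 (1.27, 40 shared peaks) and RB1 (1.24, 52 shared peaks), whose own highest peaks had ratios of 1.38 (1.07 to 1.80) and 1.5 in scaled pileup. The highest pileup per gene had a median ratio of 1.16 over protein-coding genes. A gene's own ratio and the regional median thus have different baselines. The region of CCND1 held 729 shared peaks with a median of 0.922, and those of CCND2, CCND3, CDKN1A, CDKN1B and CDK4 had medians from 1.00 to 1.17. Fold enrichment is relative to the local background and the pileup is not. No input was used here, so copy number and acetylation cannot be told apart over such a region or in the raised background at CCND1.

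**Figure D5:**
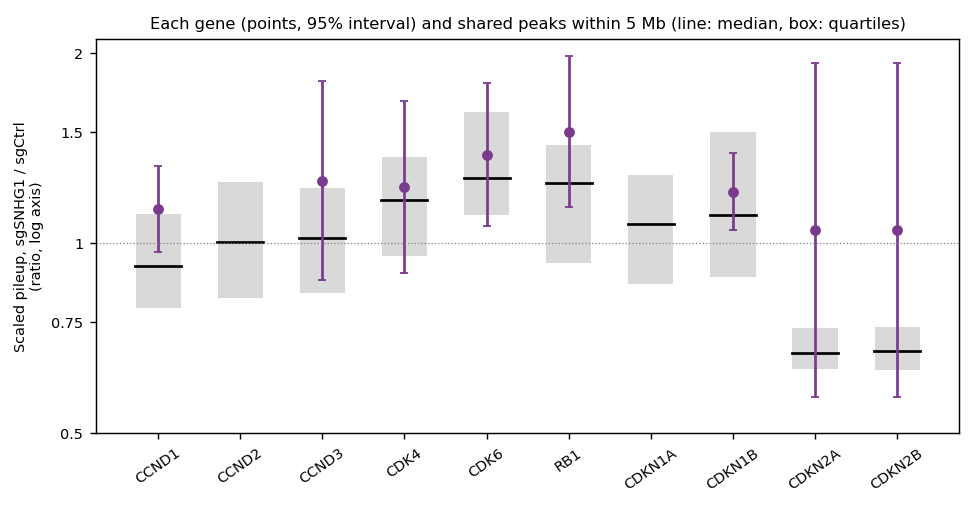
Ratio of the scaled pileup, sgSNHG1 over sgCtrl, on a log axis, for the highest pileup within 10 kb of each gene (points with 95% counting intervals) and for other shared peaks within 5 Mb (line for the median, box for the quartiles). The boxes of CDKN2A and CDKN2B lie low, with medians of 0.671 and 0.676, and CCND2 and CDKN1A have no point because 1 or both lists lack a peak. Points and boxes have different baselines, since the highest pileup per gene had a median ratio of 1.16 over protein-coding genes.

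Peaks over 2.5 kb from every coding start were stitched into enhancer regions and ranked by fold enrichment times length, a rough stand-in for super-enhancer calling. None of the 383 top regions in sgCtrl or the 299 in sgSNHG1 lay within 50 kb of a member. The share of all protein-coding genes near such a region is not given here, so this cannot be read as particular to the members. The region over CCND1 came closest in sgCtrl, at rank 542 of 21420, spanning 49053 bp with 12 peaks, and was at rank 755 of 17549 in sgSNHG1, spanning 21722 bp with 9 peaks. By CDK4 the best region was at rank 1127 in sgCtrl and 729 in sgSNHG1. It was a single peak in each list, of 1983 and 1324 bp, with its summit in the bodies of OS9 and AGAP2. The best region by CDKN1A was at rank 3102 in sgCtrl, with 6 peaks over 31265 bp, and at rank 9406 in sgSNHG1, with a single peak of 639 bp. With lists of equal size, which left 17658 sgCtrl regions, the sgCtrl region fell to rank 5843, with 3 peaks over 15996 bp.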

How the data were processed

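H3K27ac ChIP-seq data of 2 sgCtrl and 2 sgSNHG1 samples, from independent experiments in SK-N-BE(2)C, were used. The authors trimmed the reads with cutadapt, aligned them to GRCh38 with BWA and pooled the replicates per group. They ran MACS2 at a p-value of 1e-06 with duplicate reads kept. The versions are not given in the sources used here. The deposited lists hold per peak a fold enrichment (a ratio to the local background), the −log10 p, and a display score that was not used. The depth per sample is unknown.

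Peaks were assigned to GENCODE release 44 genes in Python 3.11.15 (pandas 2.3.3, scipy 1.17.1). Pileups were recovered with the MACS2 pseudocount of 1 and a Poisson p-value, and were whole within 0.001 for 99.6% of peaks in both lists. Ratios have exact binomial (Clopper-Pearson) intervals of the pileups. Shared peaks overlapped by at least 1 bp, and their median pileup ratio, 0.875, was the scale. Promoters came from RefSeq (GRCh38.p14), with entries for 8 of the 10 genes. Motifs were searched on both strands. The functions were tested on simulated data. Named genes were the 10 members, genes at a peak described, and genes of the wider list past 1.5-fold or with a start-site peak in 1 list. The members and lists were chosen with earlier results of these data known. A comparison of replicates was not possible, since the lists are pooled. Some items are not reported here.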

Additional observations from a re-analysis of the deposited data

How the results depend on the processing

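Of 60 alternative values computed, 52 stayed within the limits set (1.5 times for counts, the counting interval for ratios and shares) and 8 moved. Within those limits the ratio of peak number turned from 0.943 to 1.036 with a −log10 p of at least 10 and to 1.179 with lists of equal size. The share of sgCtrl peaks with a sgSNHG1 partner rose from 68.6% to 82.1% when peaks with a −log10 p below 10 were dropped, and to 82.1% with lists of equal size. The number of members past 1.5-fold was 1 (RB1) by scaled pileup, where CDK6 was at 1.38 and CDKN1B at 1.21. The number of members with a super-enhancer within 50 kb became 1 in sgCtrl by covered length (CCND1) and 1 in sgSNHG1 with stitching within 5 kb (CDK4). The region by CDK4 was a single peak of 1324 bp. Even at the genome-wide background, a summit needed 19 fragments in sgCtrl and 18 in sgSNHG1 to be called, which limits every statement on a missing peak. No paired analysis was possible because each deposited list pools both replicates of its group, and leaving out a replicate was not possible for the same reason.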

Other observations

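By the scaled pileup of the start-site peak, a measure that is not divided by the local background, several genes of the wider G1/S list passed 1.5-fold, as did 18.2% of 11964 protein-coding genes upwards and 2.86% downwards. The genes named were chosen after their values were seen. Higher in sgSNHG1 were the ubiquitin ligase gene MDM2 (135 and 224 fragments, ratio 1.90, interval 1.52 to 2.37), MNAT1 and CCNH of the CDK-activating kinase (27 and 39, 1.65, 0.985 to 2.80, and 64 and 85, 1.52, 1.08 to 2.13) and E2F5 (340 and 450, 1.513, 1.31 to 1.75). The median over the 25 genes with a start-site peak in both lists was 1.24, beside 1.21 over the protein-coding genes. FBXW7, the ligase component for cyclin E, had 331 fragments in sgCtrl and 160 in sgSNHG1 (0.552, 0.455 to 0.669), in a region where the median of 36 other shared peaks within 5 Mb was 0.659. CDKN2C, the gene of an INK4 inhibitor, had 262 and 144 fragments (0.628, 0.509 to 0.773), where the median of 141 other shared peaks within 5 Mb was 1.01. Their ratios by fold enrichment were 0.891 and 1.054. Whether copy number differs between the clones at these genes was not tested.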
